A study of Mus musculus with 8 samples.

Results

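The 10 genes described here encode proteins that coat the lipid droplets of the liver or release fatty acids from them. They are the perilipins Plin2, Plin4 and Plin5, the CIDE genes Cidea, Cideb and Cidec, the triglyceride lipase gene Pnpla2 with its activator Abhd5 and its inhibitor G0s2, and the monoglyceride lipase gene Mgll. Members were found by symbol. All 10 were found in RNA-seq and in Ribo-seq, among 24079 symbols shared by the assays. All 10 passed the filter on low values in both assays (over the 4 libraries of an assay, a mean of 1 RPKM or more, that is reads per length of transcript and depth of the library).

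All mice were C57BL/6, and all groups used here ate a high-fat diet (45% kcal fat) from week 8. Livers were collected at postnatal week 25. The HF group received that diet alone, and the HB group received it with betaine, a methyl donor, dissolved in water at 2% (w/v). The labels also give the time on the diet as 25 weeks, where week 8 to week 25 is 17 weeks. Each group had 2 RNA-seq libraries of polyadenylated mRNA and 2 Ribo-seq libraries of ribosome-protected fragments (RPFs), named HF1, HF2, HB1 and HB2 in each assay. The methods speak of 2 mice per group chosen for sequencing, whereas the labels describe equal amounts of RNA pooled from the preparations of 2 independent experiments. Whether a library is 1 animal is therefore not settled, and the p-values measure the spread between these libraries, part of which may be technical. Livers of mice on standard chow are not analysed here, so no value below says what the high-fat diet itself did.

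A lipid droplet is a core of triglyceride and cholesteryl ester under a single layer of phospholipid. Perilipins cover that layer and limit the access of lipases, and in hepatocytes Plin2 is the general coat protein, which is degraded when it is not bound to a droplet. CIDE proteins sit where droplets touch and let small droplets pass their lipid to larger ones, and Cideb also serves the lipidation of very low density lipoprotein. Adipose triglyceride lipase, the product of Pnpla2, removes the first fatty acid from triglyceride, and monoglyceride lipase removes the last.

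Since the libraries differ in depth, the assays differ in precision. The RNA-seq libraries held 11661207 to 22543471 reads and the Ribo-seq libraries 141890 to 1056546, as estimated from the steps that 1 read makes in the RPKM values. The Ribo-seq libraries HF1, HF2, HB1 and HB2 held 387980, 1056546, 257086 and 141890 reads, so that 3 reads on a gene of 1 kb give an RPKM of 2.84 in HF2 and 21.1 in HB2.

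Markers of the cell types of the liver were checked in mRNA, where 7.92% of all tested genes were called higher in HB and 19.1% lower (limma, adjusted p under 0.05). The 10 hepatocyte markers, led by Alb, Apoa1, Ttr and Serpina1a, summed to an RPKM of 50500 and 51260 in HF and of 61180 and 58790 in HB. 1 of them was called, Serpina1a, which was higher in HB (1658 and 2276 in HF, 5638 and 4298 in HB). Of 10 adipocyte markers, Adipoq, Lep, Plin1, Retn, Ucp1 and Aqp7 were at most at RPKM 0.539 in any RNA-seq library. In Ribo-seq these 6 were at 0 in every library except Aqp7 in HF2 (0.75). Aqp7 mRNA, at 0.476 and 0.235 in HF and 0.0176 and 0.0438 in HB, and Fabp4 mRNA, at 30.8 and 15.6 in HF and 9.55 and 18.0 in HB, were lower on average in HB. So were Plin1 (at most 0.0461) and Ucp1 (0.417 in HF1 only). Adipoq (0.0696 and 0.0687 in HF, 0 and 0.539 in HB), Retn (0 in HF, 0.078 and 0.146 in HB) and Lep (0.034 in HB2 only) were higher on average in HB. Each of these 3 had at most 12 reads in a library. Cfd was called higher, and Lipe and Pck1 were not called. The sum of the list, most of it Pck1, which hepatocytes also express, was at 2302 and 1471 in HF and at 1195 and 2156 in HB.

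Of 7 Kupffer cell markers 2 were called higher, Cd5l and Marco, with sums of 104.5 and 115.8 in HF and 130.0 and 111.9 in HB. The most abundant of them, Clec4f, was at 72.6 and 64.4 in HF and at 48.9 and 49.6 in HB and was not called, nor were Cd68 and Vsig4. Of 5 endothelial markers 1 was called lower, Stab2, with sums of 28.7 and 24.3 in HF and 16.6 and 17.3 in HB, and Pecam1, Cdh5 and Lyve1 were not called. Kdr, the marker of this list with a higher mean in HB, overlapped between the groups and was not called either. It was at 1.87 and 2.64 in HF and at 2.86 and 2.40 in HB. Of 6 tested stellate cell markers, led by Dcn, Colec11, Col3a1 and Des, 0 were called, with sums over the list of 53.6 and 46.4 in HF and 93.7 and 62.6 in HB. The part of these shifts in the results below was not tested, and in whole liver fewer cells of a type and less RNA per cell cannot be told apart.

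The promoters of Plin2, Cideb and Plin4 are shown because these genes are called in mRNA below, and that of Plin5, which is not called, because it is the neighbour of Plin4. They are the 250 bases before the RefSeq start on GRCm38.p6, written 5′ to 3′ on the minus strand that carries all 4 genes. Plin2 is chr4:86670060-86670309, Cideb chr14:55758425-55758674, Plin4 chr17:56109783-56110032, and Plin5, for which RefSeq lists 2 starts, chr17:56117549-56117798. Capitals mark the nuclear receptor half-site AGGTCA, the CCAAT box and the TATAAA box on either strand.
Plin2: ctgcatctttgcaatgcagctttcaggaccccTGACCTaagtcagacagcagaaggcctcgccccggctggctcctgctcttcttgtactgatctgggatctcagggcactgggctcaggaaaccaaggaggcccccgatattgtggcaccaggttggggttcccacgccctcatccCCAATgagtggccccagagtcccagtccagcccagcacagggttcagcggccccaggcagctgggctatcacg
Cideb: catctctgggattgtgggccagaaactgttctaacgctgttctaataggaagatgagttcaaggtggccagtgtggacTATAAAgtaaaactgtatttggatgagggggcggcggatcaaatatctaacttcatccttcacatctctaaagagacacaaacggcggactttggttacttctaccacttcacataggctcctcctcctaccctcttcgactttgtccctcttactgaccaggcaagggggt
Plin4: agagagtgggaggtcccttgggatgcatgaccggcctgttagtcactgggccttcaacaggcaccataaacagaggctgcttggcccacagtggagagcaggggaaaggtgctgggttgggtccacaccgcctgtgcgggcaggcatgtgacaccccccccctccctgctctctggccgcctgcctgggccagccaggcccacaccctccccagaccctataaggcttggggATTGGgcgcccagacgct
Plin5: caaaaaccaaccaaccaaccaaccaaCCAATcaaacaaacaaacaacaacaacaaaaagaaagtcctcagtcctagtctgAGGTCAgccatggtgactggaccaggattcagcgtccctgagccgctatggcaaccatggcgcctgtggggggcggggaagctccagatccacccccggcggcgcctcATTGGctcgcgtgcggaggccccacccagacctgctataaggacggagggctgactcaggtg

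RefSeq promoters were matched for 9 of the 10 members, all but Cidea. The half-site AGGTCA was found in Plin2 (218 to 213 bases before the start), in Plin5 (170 to 165 bases before it) and in Abhd5, where 14.0% of 32851 promoters of the same length hold it. CCAAT was found in Plin2, Plin4 and Plin5, against 33.8% of all promoters. TATAAA was found in Cideb only among the members (172 to 167 bases before the start), against 12.4%. Only exact matches were counted, so that near variants such as tataag in the Plin4 and Plin5 windows are not marked. No match overlaps another in the promoters shown. These matches are a description of letters in this window.

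In GENCODE M21 on GRCm38 the members lie on 8 chromosomes. Plin4 (chr17:56100591-56109803) and Plin5 (chr17:56111601-56117596) are neighbours on the minus strand, with 1797 bases between them. Plin2 lies at chr4:86648386-86670060, Cideb at chr14:55754050-55758458 and Cidea at chr18:67343604-67367785. The others lie at chr6:113424634-113435760 (Cidec), chr7:141455198-141460743 (Pnpla2), chr9:122351608-122381524 (Abhd5), chr1:193272161-193273217 (G0s2) and chr6:88724412-88828360 (Mgll). The length behind the RPKM exceeded the longest coding length for all 10 members, for example 843 against 309 bases for G0s2 and 1887 against 1275 bases for Plin2. RPF values are thus divided by more than the coding length, by a factor that differs between genes, and over which region the fragments were counted is not known here.

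On the high-fat diet alone the members spanned much of the range of the liver. G0s2 had the highest mRNA level of the 10, at RPKM 560.1 ± 96.5 in HF (SD, n = 2), above 98.6% of tested genes, and Abhd5 the lowest, at 6.24 ± 0.195. Cideb (132.5 ± 8.80), Plin4 (77.1 ± 31.2), Mgll (72.7 ± 11.3) and Plin2 (61.5 ± 8.59) followed G0s2. The last 3 of these lay within 1 SD of a neighbour in that order. In RPFs, on the scale of the lengths given above, the order was another, with Plin2 first at 177.7 ± 33.1 in HF, then Cideb at 131.6 ± 12.7, Mgll at 120.6 ± 3.88 and G0s2 at 108.6 ± 10.7. Translation efficiency (TE, the RPKM of RPFs over that of mRNA) in HF was above 85.0% of genes for Plin2 and above 6.46% for G0s2.

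**Figure D1:**
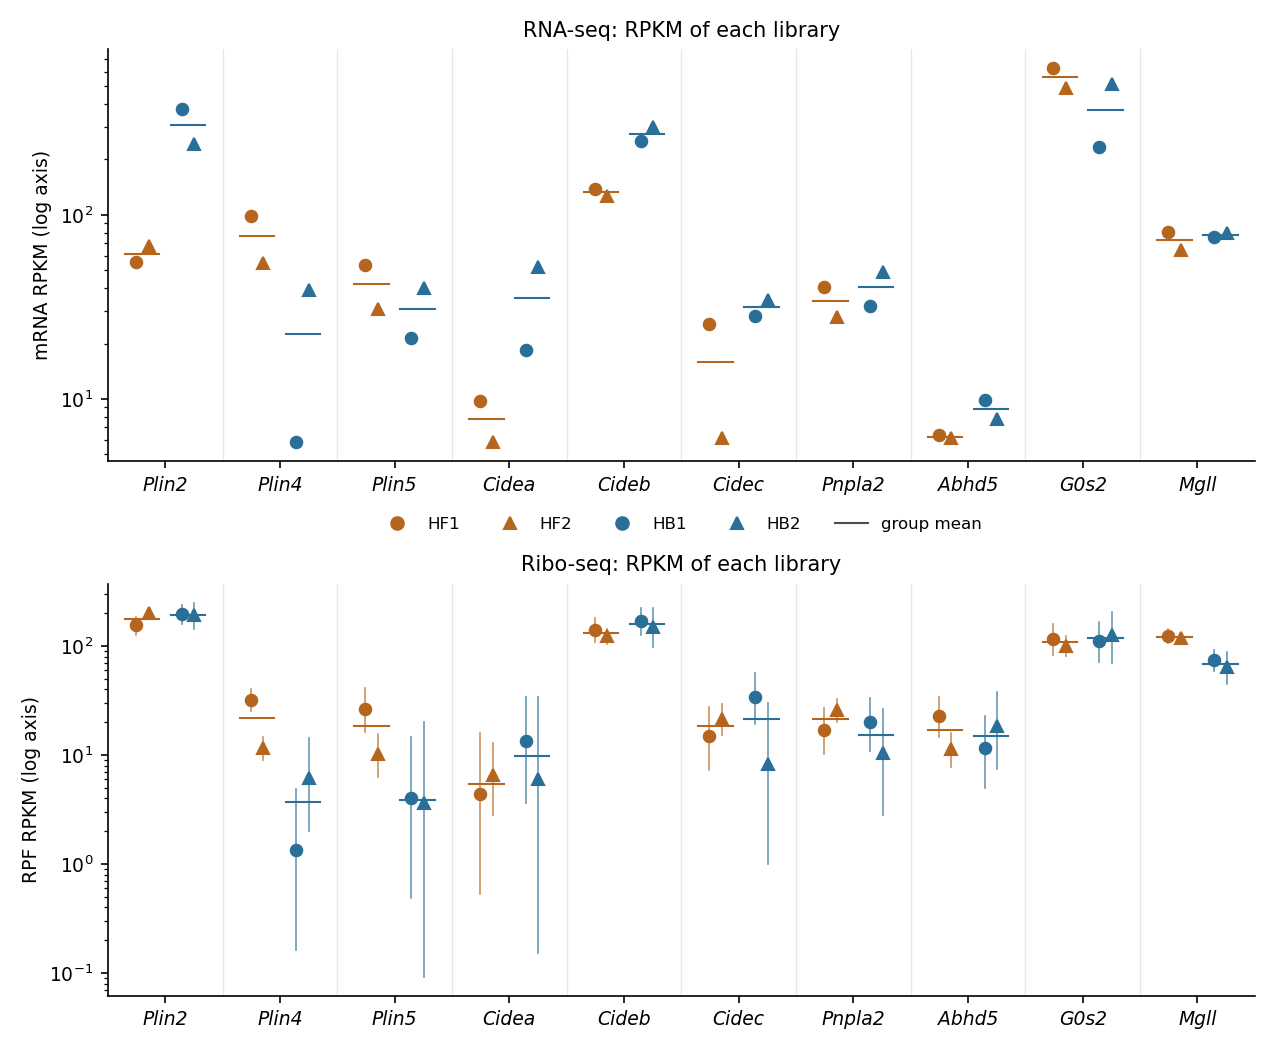
RPKM of the 10 members in each library on a log axis, in RNA-seq (top) and Ribo-seq (bottom). Circles and triangles are libraries 1 and 2 of the HF group (brown) and the HB group (blue), short horizontal lines are group means, and vertical lines in the lower panel are exact 95% Poisson intervals of the reads, which cover counting error only; Plin2 mRNA is at 55.4 and 67.6 in HF and at 374.0 and 242.2 in HB, while its RPFs overlap.

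The first comparison asked which of the members differed in mRNA between HB and HF. Plin2 rose, with a 5.01-fold higher mean RPKM in HB. Cidea (4.54-fold) and Cideb (2.09-fold) also rose, and Plin4 was the one member that fell, with a 3.44-fold higher mean in HF. No gene of the lipolysis group (Pnpla2, Abhd5, G0s2 and Mgll) passed the test. With limma on log2(RPKM + 1) and a Benjamini-Hochberg adjusted p under 0.05, 4 of 10 members were called, 3 higher and 1 lower in HB. Of all 10687 tested genes, 27.0% were called, 7.92% higher (846) and 19.1% lower (2044). After a shift of all libraries to a common median these were 1519 higher and 1039 lower, and the median log2 change of all genes moved from -0.19 to 0.08. The median change of the members was 0.33, with 7 above 0 and 3 below, where 39.8% of all tested genes were above 0.

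Plin2, the coat protein of hepatocyte droplets, had mRNA RPKM of 55.4 and 67.6 in HF1 and HF2 and of 374.0 and 242.2 in HB1 and HB2. Both HB libraries lay far above both HF libraries, and HB1 was the higher of them. The change on the log2 scale was 2.28 ± 0.29 (SE, limma adjusted p = 0.00523), and it stayed between 1.97 and 2.59 under 13 alternatives. It was called in 12 of them, the exception being the fit without a filter on low values (limma adjusted p = 0.0539), in which no gene was called. The HB libraries held 24174 Plin2 mRNA reads and the HF libraries 2728. Plin2 was the only member past the stricter thresholds of the study for mRNA (a log2 change beyond 1 with an unadjusted p under 0.001), which 8.86% of all tested genes passed, 2.30% higher and 6.56% lower in HB.

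Plin4, a perilipin best known from adipocytes, went the other way. Its mRNA RPKM was 99.1 and 55.0 in HF and 5.80 and 39.0 in HB, so the HB libraries lay below the HF libraries and differed from each other 6.72-fold. HB differed from HF by a log2 change of -2.18 ± 0.66 (limma adjusted p = 0.0359). In each fit with 1 library left out, the lone library of a group was taken to vary like the group that kept both. Without HB1 the change was -0.90 and no longer called (limma adjusted p = 0.0738), and without HB2 it was -3.46. After a shift to a common median it was -1.91 and also not called (limma adjusted p = 0.0613). HB1 was also the lowest library for its neighbour Plin5.

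Plin5, the coat protein that tethers droplets to mitochondria, had mRNA RPKM of 53.2 and 30.7 in HF and 21.5 and 40.1 in HB. HB1 was lowest, and HB2 lay between the HF libraries. Its log2 change was -0.45 ± 0.36 (limma adjusted p = 0.373), with a 95% interval of -1.25 to 0.35. The change was -0.01 without HB1 and -0.88 without HB2, and it was called in none of the 13 alternatives.

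All 3 CIDE genes had higher mRNA values in both HB libraries than in either HF library. Cideb, the member of the family that hepatocytes make at high levels, had mRNA RPKM of 138.8 and 126.3 in HF and 251.3 and 302.0 in HB. The groups were far apart, with little spread inside either. Its log2 change was 1.05 ± 0.26 (limma adjusted p = 0.0185). The call was lost without HF1 (limma adjusted p = 0.0922) and without HF2 (limma adjusted p = 0.125), where the change itself was 1.12 and 0.98.

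Cidea, which is made mainly in brown fat and appears in fatty liver, had mRNA RPKM of 9.72 and 5.81 in HF and 18.5 and 52.1 in HB. HB2 was the highest library, 2.82-fold above HB1, and both lay above HF. The log2 change was 1.91 ± 0.43 (limma adjusted p = 0.0132) and ran from 1.19 to 2.64 over the 13 alternatives, the lower end without HB2. Cidec, known from white fat and from steatotic liver, had mRNA RPKM of 25.4 and 6.16 in HF and 28.4 and 34.5 in HB. The HF libraries differed 4.13-fold, and HF1 was close to the HB libraries. Its log2 change of 1.23 ± 0.49 did not pass (limma adjusted p = 0.0909). Here HF2 decided the value, which was 0.29 without HF2 and 2.17 without HF1. The latter was called (limma adjusted p = 1.03e-04), but only on the assumption that the lone HF library varies like the HB libraries, against the 4.13-fold difference within HF. After a shift to a common median Cidec was called at 1.50 (limma adjusted p = 0.0489).

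**Figure D2:**
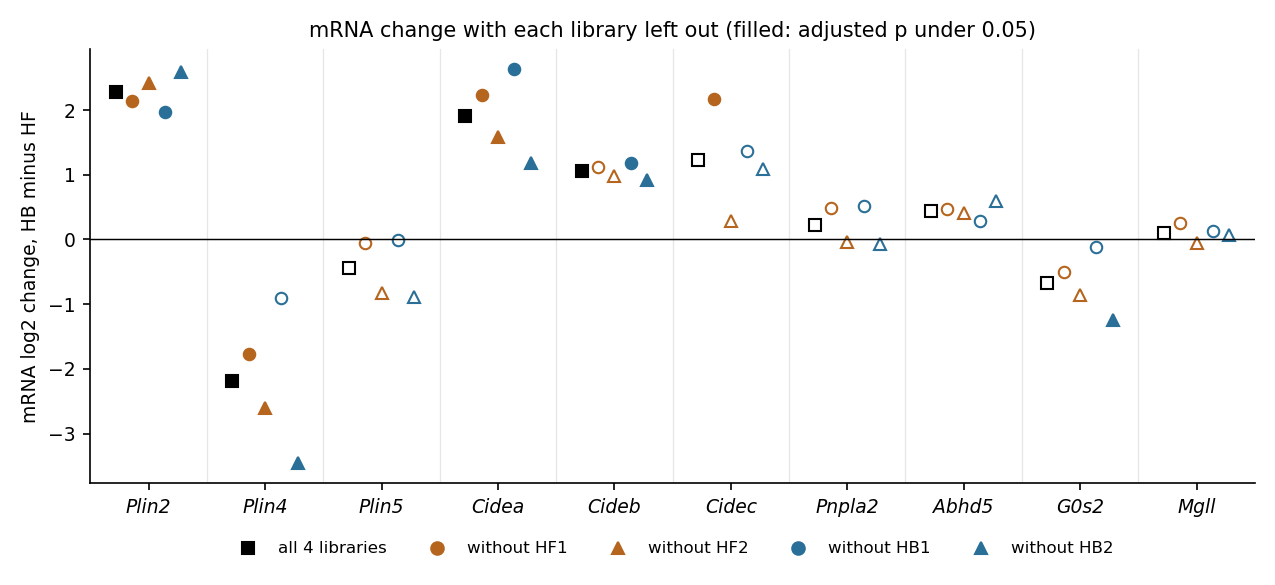
Log2 change in mRNA between HB and HF for each member, with all 4 libraries (black squares) and with 1 library left out (brown: an HF library, blue: an HB library; circles: number 1, triangles: number 2). Filled symbols have an adjusted p under 0.05 with limma; Plin2 and Cidea are filled throughout, while Plin4 is at -0.90 and open without HB1.

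Among the lipolysis genes, Pnpla2 mRNA was at 40.7 and 27.8 in HF and at 32.0 and 48.8 in HB. The groups overlapped, and the log2 change of 0.23 ± 0.30 had a 95% interval of -0.45 to 0.90 (limma adjusted p = 0.603). Abhd5, whose product CGI-58 activates the lipase, was at 6.37 and 6.10 in HF and at 9.91 and 7.80 in HB. Both HB libraries were higher, with a log2 change of 0.44 ± 0.25 that did not pass (limma adjusted p = 0.219).

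G0s2, the inhibitor of the lipase, was at 628.4 and 491.9 in HF and at 234.8 and 511.4 in HB. HB1 alone was low, and HB2 lay between the HF libraries. The difference on the log2 scale was -0.68 ± 0.38 (limma adjusted p = 0.201). It was -0.12 without HB1 and -1.24 without HB2. The latter was called (limma adjusted p = 0.00565) on the assumption that the lone HB library varies like the HF libraries, where the HB libraries differ 2.18-fold. Mgll was at 80.6 and 64.7 in HF and at 75.7 and 79.4 in HB, with both HB libraries inside the HF range and a 95% interval of the log2 change of -0.47 to 0.67. Counted without a test, 5 of the 10 members had both HB libraries above both HF libraries, against 24.8% of all tested genes, and 1 had both below, against 43.3%.

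The second comparison asked which members differed in RPFs. In contrast to mRNA, Plin2 footprints lay at nearly one level in both groups, with a 1.03-fold pooled ratio of HB to HF. The lowest footprint levels in HB relative to HF were those of Plin4, Plin5 and Mgll. None of the 10 members was called at an adjusted p under 0.05 with limma, and the background was 0.00% of 11190 tested genes, although 1122 had an unadjusted p under 0.05. With voom on the recovered reads 83 genes and no member were called. At the thresholds of the study (a log2 change beyond 1 with an unadjusted p under 0.05), 2 members were called, Plin4 and Plin5, both lower in HB, where 9.44% of all genes passed, 1.58% higher and 7.86% lower. The median log2 change was -0.11 for the members and -0.43 for all tested genes.

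Plin2 RPFs were at RPKM 154.3 and 201.1 in HF and at 195.8 and 190.5 in HB, from 113, 401, 95 and 51 reads. Both HB libraries fell inside the HF range. The footprint log2 change was 0.13 ± 0.27 with a 95% interval of -0.58 to 0.84 (limma adjusted p = 0.867), which does not reach the mRNA change of 2.28. Rescaled to a common sum of RPKM it was -0.74, a scaling under which the median of all genes was -1.16. The pooled ratio of HB to HF reads had an exact 95% interval of 0.850 to 1.24, which covers counting error only.

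Plin4 RPFs were at 32.2 and 11.5 in HF and at 1.35 and 6.12 in HB, from 72, 70, 2 and 5 reads. Both HB libraries were below both HF libraries, as for Plin4 mRNA. The log2 change was -2.32 ± 0.83 (unadjusted p = 0.0395, limma adjusted p = 0.493), and it ran from -3.12 to -1.52 over 13 alternatives. The pooled ratio was 0.179 with a counting interval of 0.0705 to 0.377. Plin5 RPFs were at 26.6 and 10.3 in HF and at 4.01 and 3.64 in HB, from 20, 21, 2 and 1 reads. Here HB was low in both libraries although Plin5 mRNA overlapped. The log2 change was -1.87 ± 0.63 (unadjusted p = 0.0319, limma adjusted p = 0.493). With 1 library left out it ran from -2.52 without HF2 to -1.22 without HF1, and the pooled ratio of 0.265 had a counting interval of 0.0525 to 0.830, since it rests on 3 HB reads.

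Mgll had the most footprint reads of the members, with 191, 497, 76 and 36 reads and RPKM of 123.4 and 117.9 in HF and 74.1 and 63.6 in HB. The HF libraries were nearly equal and both HB libraries lay below them, where Mgll mRNA overlapped. The log2 change was -0.80 ± 0.27 (unadjusted p = 0.0314, limma adjusted p = 0.493), and it remained negative over 13 alternatives (-1.67 to -0.48). The pooled ratio was 0.589 with a counting interval of 0.478 to 0.721.

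Cideb RPFs were at 140.6 and 122.6 in HF and at 169.1 and 150.2 in HB. Both HB libraries were above both HF libraries, but the log2 change was 0.28 ± 0.26 (limma adjusted p = 0.706) and turned to -0.59 under a common sum. G0s2 RPFs were at 116.2 and 101.0 in HF and at 110.7 and 125.4 in HB. They overlapped, and the low mRNA level of HB1 had no counterpart in the Ribo-seq library of that number, which need not come from the same animal. The other members rested on few footprints. Cidea had 2, 8, 4 and 1 reads in HF1, HF2, HB1 and HB2, and its pooled ratio of 1.81 had a counting interval of 0.486 to 5.81, which holds both 1 and the mRNA ratio of 4.54. The pooled ratios of Cidec (1.26, interval 0.678 to 2.22), Pnpla2 (0.708, interval 0.402 to 1.18) and Abhd5 (0.970, interval 0.509 to 1.74) likewise included 1. Among the members 3 had both HB libraries below both HF libraries, against 33.2% of all tested genes, and 1 had both above, against 9.07%.

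**Figure D3:**
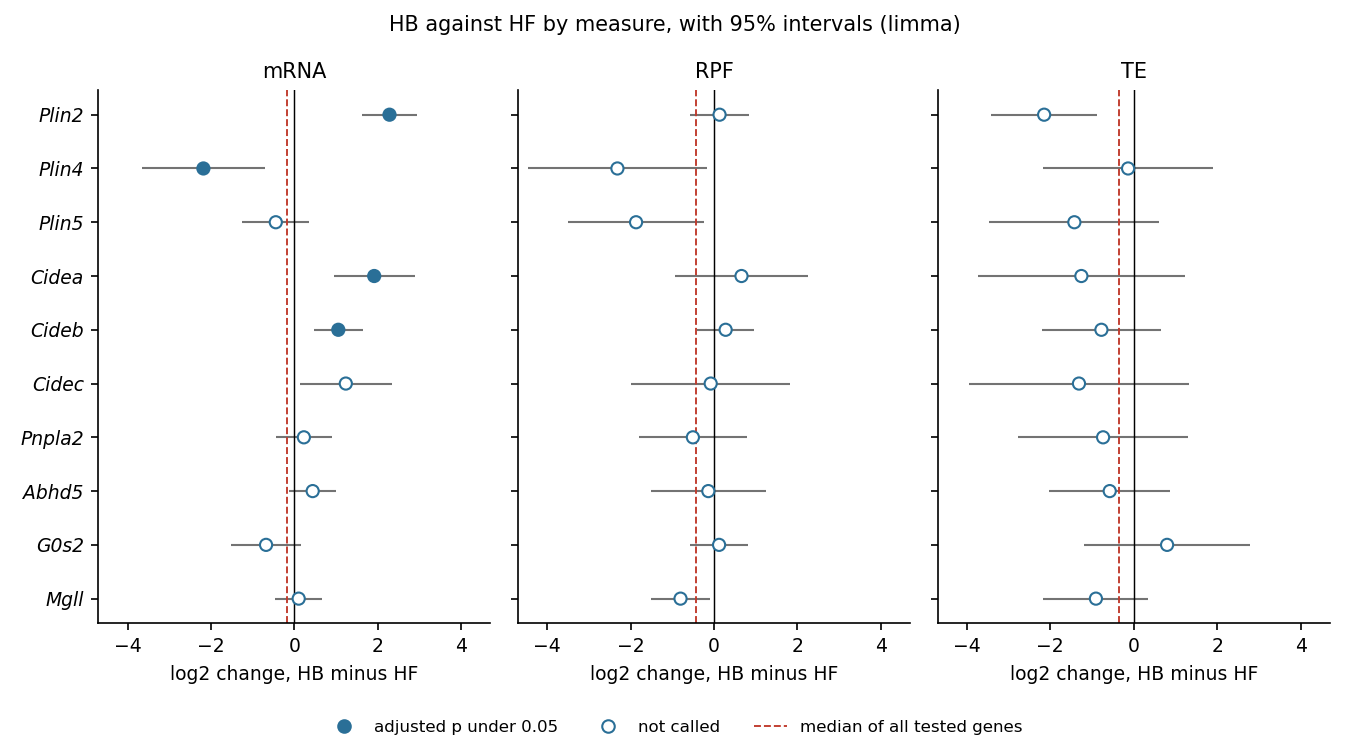
Log2 change between HB and HF in mRNA, RPFs and TE for each member, with 95% intervals from limma; filled points have an adjusted p under 0.05 and the dashed line is the median of all tested genes (-0.19, -0.43 and -0.35). Plin2 is at 2.28 in mRNA, at 0.13 in RPFs and at -2.15 in TE.

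The third comparison was of TE, taken from the RNA-seq and Ribo-seq libraries of the same group and number. Plin2 had a mean TE 4.40-fold higher in HF, the lowest log2 change of the 10 with all libraries. Without HF1 Cidec (-2.50) was lower than Plin2 (-2.20), and without HB1 Cidea (-2.49), Cidec (-2.41) and Plin5 (-1.91) were lower than Plin2 (-1.86). With limma no member was called at an adjusted p under 0.05 and the background was 0.00% of 9455 genes, where 1154 had an unadjusted p under 0.05 and an interaction model over all 8 libraries called 1 gene, not a member. At the thresholds of the study for TE (a log2 change beyond 2 with an unadjusted p under 0.05) Plin2 was the one member called, against 6.09% of all genes, 1.49% higher and 4.60% lower in HB. TE was lower in HB for the middle gene too, with a median of 1.07 and 1.02 in HF1 and HF2 and of 0.877 and 0.739 in HB1 and HB2. The median log2 change was -0.84 for the members, 9 of which were below 0, and -0.35 for all tested genes, of which 36.8% were above 0.

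Plin2 TE was 2.78 and 2.98 in HF1 and HF2 and 0.524 and 0.786 in HB1 and HB2. The HF values were nearly equal, and both HB values lay below them. Beside the median gene of its own pair, Plin2 was above it in HF1 and HF2, below it in HB1 (0.524 against 0.877) and slightly above it in HB2 (0.786 against 0.739). The log2 change was -2.15 ± 0.52 (unadjusted p = 0.00606, limma adjusted p = 0.334), with a 95% interval of -3.42 to -0.87. It stayed between -2.97 and -1.83 over 14 alternatives, with an adjusted p of 0.102 in the interaction model and 0.335 with the numbers of the assays crossed. It was called in 2 of them, without HB1 (limma adjusted p = 0.0299) and without HB2 (limma adjusted p = 0.0186), in which the single HB value was assumed to vary like the HF values.

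G0s2 was the one member with higher TE values in HB, at 0.185 and 0.205 in HF and 0.472 and 0.245 in HB, a log2 change of 0.80 ± 0.82 that did not pass (limma adjusted p = 0.714) and that was -0.02 under a common sum. All 4 values were below 1 and below the median gene of their own pair. Mgll TE was 1.53 and 1.82 in HF and 0.978 and 0.80 in HB (log2 change -0.91 ± 0.52, limma adjusted p = 0.516). Cideb TE was 1.01 and 0.971 in HF and 0.673 and 0.497 in HB (log2 change -0.77 ± 0.59, limma adjusted p = 0.617). For both, the groups did not overlap.

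Plin5 TE was 0.50 and 0.335 in HF and 0.187 and 0.0908 in HB, also without overlap (log2 change -1.42 ± 0.83, limma adjusted p = 0.520), on 3 HB footprints. Plin4 TE overlapped, at 0.325 and 0.209 in HF and 0.233 and 0.157 in HB. Its mRNA and RPFs were thus both low in HB by like amounts, and the log2 change in TE was -0.13 ± 0.83, with an interval of -2.17 to 1.90. TE of Cidea, Cidec, Pnpla2 and Abhd5 overlapped between the groups, with log2 changes of -1.25, -1.31, -0.73 and -0.57. These values hung on single libraries. Cidea ran from -2.49 without HB1 to -0.018 without HB2, Cidec from -2.50 without HF1 to -0.12 without HF2, Pnpla2 from -1.48 without HB1 to 0.0072 without HB2, and Abhd5 from -1.04 without HB2 to -0.11 without HB1. In all, 4 members had both HB values below both HF values, against 31.9% of genes, and 1 had both above, against 13.2%.

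**Figure D4:**
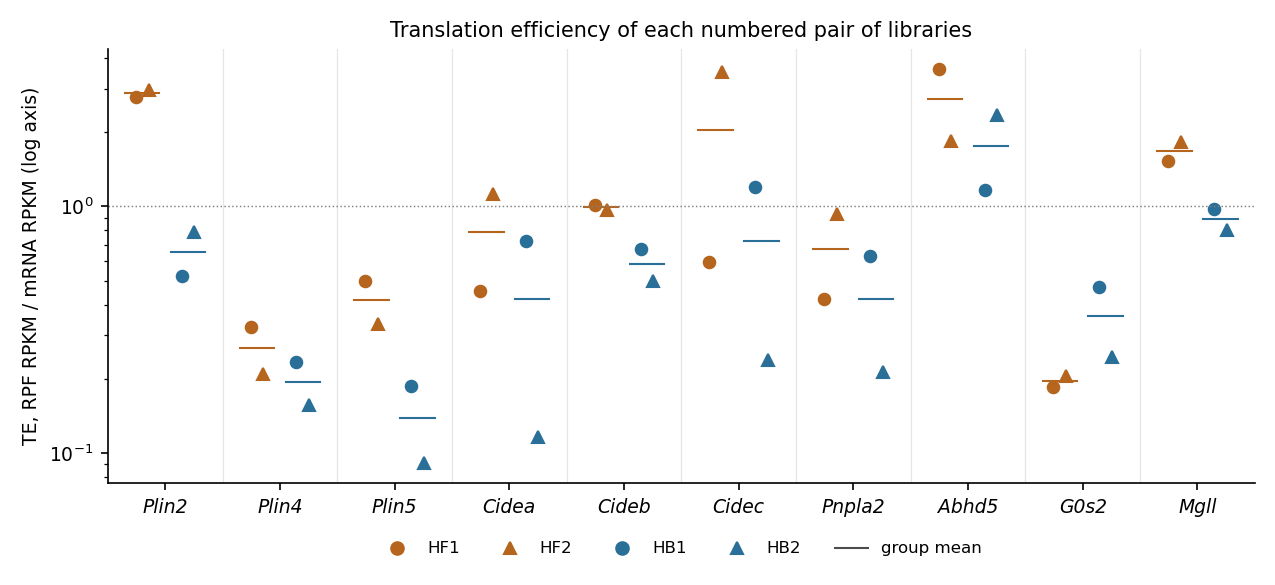
TE of each member (RPKM of RPFs over RPKM of mRNA, log axis) for each numbered pair of an RNA-seq and a Ribo-seq library. Symbols are as in the plot of RPKM by library, and the dotted line marks equal RPKM; Plin2 is near 3 in both HF pairs (2.78 and 2.98) and below 1 in both HB pairs.

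The balance within each family was then taken from RPKM, which is per length. For RPFs that length exceeds the coding length to a different degree in each gene, so that shares and ratios between genes in RPFs are set side by side between libraries and not read as levels of translation. In mRNA, Plin2 made up 25.5% and 41.1% of the summed RPKM of Plin1 to Plin5 in HF and 89.2% and 72.7% in HB. Plin4 made up 45.6% and 33.5% in HF and 1.38% and 11.7% in HB. Plin4 had the largest share in HF1 and Plin2 in HF2, whereas Plin2 mRNA outweighed all other perilipins together in both HB libraries. In RPFs, Plin2 already made up 69.3% and 87.5% in HF, against 88.6% and 92.1% in HB. With 2 libraries against 2 an exact two-sided permutation test cannot go below p = 0.333, the value it gave for each of these shares.

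The sum of perilipin mRNA was at RPKM 218 and 164 in HF and at 419 and 333 in HB, while the sum of perilipin RPFs was at 223 and 230 in HF and at 221 and 207 in HB. Summed mRNA was higher in both HB libraries. Summed RPFs were slightly lower in both, a gap that counting error can cover. Most of the RPF sum is Plin2, from 95 reads in HB1 and 51 in HB2. Its 95% counting intervals were RPKM 158.4 to 239.4 in HB1 and 141.8 to 250.4 in HB2. Cideb made up 77.7% to 91.3% of the summed CIDE mRNA RPKM over the 4 libraries. Its share of the summed RPF RPKM, on the lengths given above, was 78.1% to 91.3%, with the groups overlapping in both measures. The level of G0s2 mRNA over that of Pnpla2, inhibitor over lipase, was 15.5 and 17.7 in HF and 7.34 and 10.5 in HB, without overlap. An exact two-sided permutation test gave p = 0.333, the lowest value it can take here. In RPFs the same ratio was 6.80 and 3.92 in HF and 5.53 and 12.1 in HB, with overlap, and 4 Pnpla2 reads lie behind the last value. The ratios of Abhd5 and of Mgll to Pnpla2 overlapped between the groups in both measures. In mRNA, Abhd5 over Pnpla2 was 0.157 and 0.219 in HF and 0.31 and 0.16 in HB. Mgll over Pnpla2 was 1.98 and 2.33 in HF and 2.37 and 1.63 in HB.

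**Figure D5:**
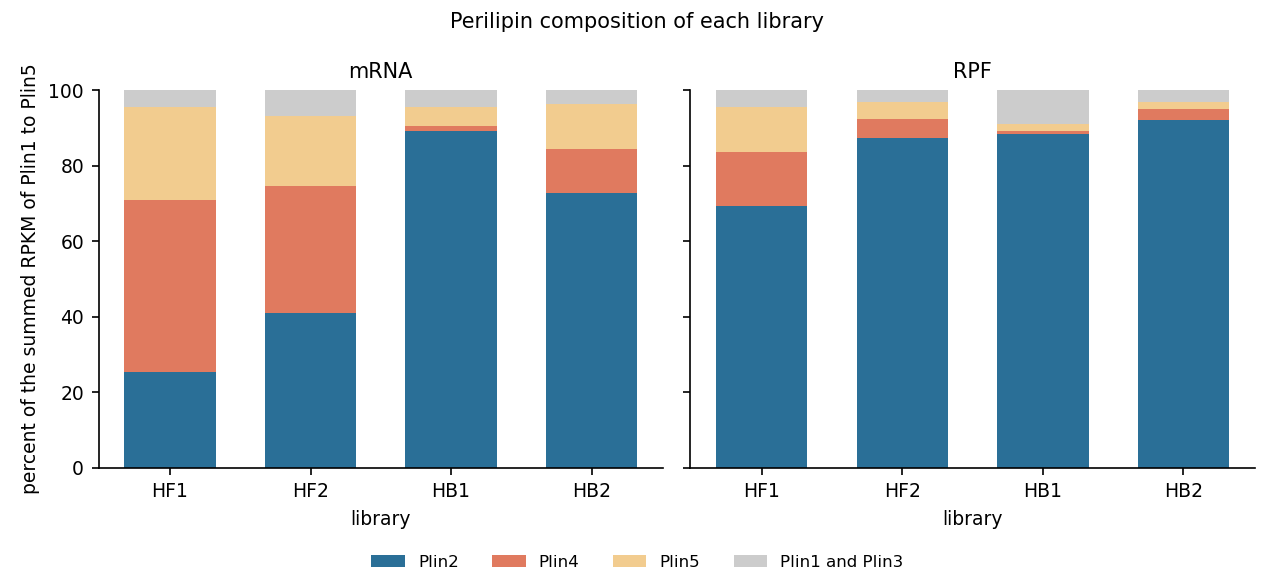
Share of each perilipin in the summed RPKM of Plin1 to Plin5 in each library, in mRNA (left) and RPFs (right), in percent. The Plin2 share of mRNA is 25.5% and 41.1% in the HF libraries and 89.2% and 72.7% in the HB libraries, while its share of RPFs is at least 69.3% in all 4.

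Other genes of the pathway were followed in lists chosen by function. Of 17 tested genes of droplet biogenesis and other coat proteins, 2 rose in mRNA and none fell, where 7.92% of all tested genes rose and 19.1% fell. With so few genes called, neither this count nor those of the next 3 lists shows anything particular to a list. Hsd17b11, a droplet-bound dehydrogenase, was at 64.7 and 73.7 in HF and at 158.3 and 136.6 in HB (log2 change 1.08 ± 0.25, limma adjusted p = 0.0154). Fitm2, which acts in droplet formation at the endoplasmic reticulum, was at 4.49 and 4.48 in HF and at 15.2 and 8.92 in HB (log2 change 1.21 ± 0.29, limma adjusted p = 0.0164). Both had non-overlapping groups in mRNA. Fitm2 RPFs were not called and lay lower in both HB libraries, at 42.4 and 35.1 in HF and at 23.7 and 8.58 in HB (the last from 2 reads). Hsd17b13 (0.84, limma adjusted p = 0.0969) and Mettl7a1 (0.64, limma adjusted p = 0.0978) were next and did not pass. The median log2 change of the list was 0.25, where it was -0.19 for all tested genes.

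Of 18 other hydrolases of neutral lipid, 2 rose and 1 fell, beside 7.92% and 19.1% of all tested genes, with a median log2 change of 0.37. Lipa, the lysosomal acid lipase, was at 22.8 and 22.0 in HF and at 58.5 and 47.4 in HB (log2 change 1.20 ± 0.25, limma adjusted p = 0.0104). Lipa RPFs were at 106.7 and 127.4 in HF and at 78.6 and 71.2 in HB, lower in both HB libraries and not called. Of the other called genes of these lists with at least 5 footprint reads in every library, RPFs overlapped between the groups for Hsd17b11 (142.6 and 138.7 in HF, 130.5 and 165.9 in HB), Pnpla7 (28.6 and 26.2 in HF, 35.6 and 7.68 in HB) and Sqstm1 (131.8 and 116.1 in HF, 121.8 and 92.0 in HB). Pnpla7, a lysophospholipase of the family of Pnpla2, was at 14.7 and 13.3 in HF and at 31.6 and 30.9 in HB (1.11 ± 0.24, limma adjusted p = 0.0117). The gene that fell was Pnpla6, also a lysophospholipase (-1.30 ± 0.30, limma adjusted p = 0.0134). Lpl, the lipase of the capillary wall, was lower without passing (-0.74, limma adjusted p = 0.0598).

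Of 11 genes of lipophagy and of the chaperone-mediated removal of coat proteins, 1 rose and 1 fell, beside the same 7.92% and 19.1%. Sqstm1, the autophagy receptor p62, rose by a log2 change of 0.81 ± 0.25 (limma adjusted p = 0.0404), and Tfeb, a transcription factor of lysosomal genes, changed by -0.87 ± 0.28 (limma adjusted p = 0.0433). Becn1 (-0.62) and Ulk1 (-0.65) did not pass. Of 5 tested genes that PPAR-gamma is known to drive in steatotic mouse liver, or PPAR-gamma itself, 2 rose, beside 7.92% of all tested genes, Mogat1 (1.12 ± 0.24, limma adjusted p = 0.0114) and Cfd (1.00 ± 0.25, limma adjusted p = 0.0187). Pparg was at 6.21 and 4.29 in HF and at 11.7 and 6.68 in HB, with a log2 change of 0.68 that did not pass (limma adjusted p = 0.131). Fabp4, a fatty acid carrier, was the tested gene of this list with lower values on average in HB, as given among the adipocyte markers, with a log2 change of -0.70 that did not pass either (limma adjusted p = 0.191). In RPFs and in TE no gene of these 4 lists was called.

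By the distance over the 8 log2 values, centred in each assay, the genes most like Plin2 among 3327 genes whose mean RPKM reached 10 in both assays were Cyp2d11 (distance 0.466), Ces2e (0.513) and Sdha (0.519). Cyp2d11 mRNA was at 4.69 and 6.97 in HF and at 28.6 and 21.7 in HB, and its RPFs at 163.7 and 170.8 and at 198.2 and 181.7. These values describe the choice, which used them.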

How the data were processed

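Liver RNA of HF and HB mice was measured by RNA-seq and Ribo-seq, with 2 libraries per group and assay. Reads had been mapped by the authors with FANSe2 to mm10, and the deposited values are RPKM, one file per library, each scaled by that library alone. The authors took differential genes from edgeR, which was not used here because RPKM are not counts. Over which region RPFs were counted is not given in the sources used here.

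Library totals were inferred from the RPKM step that a single read makes, and reads per gene were recovered within 0.01 of a whole number for 99.99% of RNA-seq values or more. The recovered RNA-seq reads sum to 90.1% to 91.8% of these totals, and the Ribo-seq reads to 97.9% to 98.6%. Genes without a resolved length are left out of these sums, and the cause of the gap was not tested. Intervals from reads cover counting error only, and PCR copies cannot be told from separate molecules. In RNA-seq, 4 entries that repeat a symbol were dropped.

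The filter kept genes whose RPKM averaged 1 or more in the assay. Tests were made on log2(RPKM + 1) by limma (version 3.58.1, R version 4.3.3), as lmFit and eBayes with trend, group only, two-sided, and Benjamini-Hochberg adjustment ran over all tested genes. Fold changes on this scale understate those of low genes. For TE the tested value was the difference between the assays of these log2 values, and printed TE values are ratios without the constant. Whether RNA-seq and Ribo-seq libraries of one number share an animal is not stated. The steps were tested on simulated data.

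The members and lists were chosen with earlier results of these data known. All members are named. Of each pathway list the 4 genes with the smallest unadjusted p in mRNA are named, and of the cell type lists the 4 with the highest mean RPKM and defining markers at 0. Kdr, Marco and Pnpla3, and adipocyte markers near but not at 0 in every library, fall outside this rule and were named after their values were seen. Alternatives changed the pseudocount (0.1), the filter (none, or 5), the scaling (to a common sum or a common median), the variance trend, the replicate block and the libraries (each left out), and used voom on recovered reads and, for TE, an interaction model and crossed numbers. Crossed blocks were added after seeing the data.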

Additional observations from a re-analysis of the deposited data

How the results depend on the processing

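Among the member results in mRNA, 121 of 140 alternatives gave the same direction and call, and in RPFs and TE 126 of 140 and 141 of 150. In mRNA 11 alternatives lost a call, 5 gained one and 3 turned the direction. Part of this agreement was fixed in advance. The filters, the variance trend, the replicate blocks and the thresholds of the study leave the log2 change itself unchanged. In RPFs and TE no member was called, so no call could be lost there. The number of called genes depended more on the setting. In mRNA, 2890 genes were called, 947 at the thresholds of the study and 0 without a filter (4919 at an unadjusted p under 0.05). Leaving out 1 library gave 1316 to 3726, the lowest without HF1. Of the members 4 were called, 1 at the thresholds of the study and 0 without a filter. In RPFs 0 genes were called, 1056 at the thresholds of the study, 1 with a minimum of 5 and 83 with voom, and leaving out 1 library gave 0 to 704 (the highest without HF2). In TE 0 were called, 576 at the thresholds of the study, 1 in the interaction model and 0 to 1601 with 1 library left out (the highest without HB1). The thresholds of the study called 2 members in RPFs and 1 in TE, where leaving out 1 library gave 0 to 2 members. The cause was not tested.

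Same-numbered libraries did not deviate together, with correlations across genes of -0.104 between HF and HB in mRNA and -0.0138 in RPFs. Between mRNA and RPFs, the pairs behind TE, the correlations were -0.00239 in HF and -0.0774 in HB. The replicate block called 3215 genes and 5 members in mRNA (Cidec added) and 24 genes in RPFs, and changed no other member's call. With the numbers crossed, 3601 genes were called in mRNA, 79 in RPFs and 34 in TE.

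Directions turned only where the member was not called in that same measure; Plin2, Cidea, Cideb and Plin4, which were called in mRNA, kept their mRNA direction in all alternatives. With 1 library left out, mRNA ran from -0.071 (without HB2) to 0.52 for Pnpla2 (-0.040 without HF2) and from -0.055 (without HF2) to 0.26 for Mgll. RPFs ran from -0.058 (without HF1) to 0.32 for Plin2, from -1.04 to 0.88 (without HB2) for Cidec, which was 0.16 without HF2, and from -0.62 to 0.35 (without HF1) for Abhd5, which was 0.17 without HB1. TE ran from -0.61 to 0.34 (without HB2) for Plin4, which was 0.15 without HF1, and from -1.48 to 0.0072 (without HB2) for Pnpla2. A common sum turned RPFs of Plin2 (-0.74), Cidea (-0.087), Cideb (-0.59) and G0s2 (-0.75) and TE of G0s2 (-0.024). A common median turned RPFs of Cidec (0.24) and Abhd5 (0.19) and TE of Plin4 (0.19), and voom turned RPFs of Cidec (0.17). Without HB1, TE of Cidea was called (-2.49, limma adjusted p = 0.0395), on a lone HB value.

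Depth limits the Ribo-seq values of Plin4, Plin5 and Cidea, which had 1 to 5 reads in each HB library.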

Other observations

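Pnpla3, a droplet-bound acyltransferase and hydrolase, was singled out after its values were seen. Its mRNA RPKM was 0.664 and 0.618 in HF1 and HF2, 17.5 in HB1 and 0.404 in HB2, from 36, 34, 1831 and 34 reads, and the log2 change did not pass (1.63 ± 0.87, limma adjusted p = 0.188). HB1 is also the RNA-seq library with the lowest Plin4, Plin5 and G0s2 levels and the highest Plin2 and Abhd5 levels. HB2 is the RNA-seq library with the highest Cidea, Cideb, Cidec and Pnpla2 levels. The cause of these differences between the HB libraries was not tested.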
